A study of Mus musculus with 12 samples.

Results

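The genes described here encode 10 secreted acute-phase and defence proteins: Lcn2, Chil1, S100a8, S100a9, Saa1, Saa2, Saa3, Ltf, Spp1 and Clu. They are 10 of the 20660 genes that could be named on the array, and all 10 were among the 13350 genes kept for testing. They were chosen by name, some of them because they read higher in stroma than in epithelium of wild-type tumours, so that contrast is described below without a test. Each gene was read by 1 probe.

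The samples were mammary tumours of FVB mice carrying MMTV-wnt1, a transgene whose mouse mammary tumour virus promoter makes breast epithelium produce the growth factor Wnt1. Tumours of Rarb -/- mice (KO) were set against tumours of Rarb +/+ mice (WT), Rarb being the gene of the nuclear retinoic acid receptor beta. Epithelium and stroma of each tumour were cut apart by laser capture microdissection, and every tumour carried the transgene. Genotype and compartment thus made 4 groups of 3 arrays, from 6 tumours that each gave both compartments (KO replicates 1, 3 and 4 and WT replicates 1, 2 and 3). The labels give no ages and do not say whether the tumours are from different mice, so p-values here cover only the spread among these arrays, which may be technical. Every value is a log2 ratio of the tumour sample (Cy3) over a universal mouse reference RNA (Cy5) on a 2-colour Agilent array. The scanner's own ratios run the opposite way, reference over sample. A ratio compares a gene between arrays and says nothing about its level relative to another gene.

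Acute-phase proteins are made in large amounts when the cytokines IL-6, IL-1 and TNF act on a cell through STAT3, C/EBP and NF-kB transcription factors. The liver is their main source, and epithelia and immune cells make several of them locally. In the mammary gland, lactoferrin (Ltf) and osteopontin (Spp1) are milk proteins, and lipocalin-2 (Lcn2) and clusterin (Clu) are known for their induction when the gland regresses after lactation. S100a8 and S100a9 form calprotectin, the abundant metal-binding protein of neutrophils.

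The arrays of each compartment shared a slide, so compartment and slide cannot be told apart, and on each slide KO arrays lay in the first row and WT arrays in the second, so neither can genotype and slide row. The share of probes with Cy3 well above background was 36.0% to 46.3%, and no spot was saturated. In epithelium the Rarb probe read -1.13, 1.36 and 0.50 for KO and -0.76, 0.85 and 0.77 for WT. In stroma it read 1.83, 2.09 and 0.57 for KO and -0.01, -0.29 and 1.37 for WT. The groups overlapped, the genotypes did not differ past the threshold (epithelium, limma adjusted p = 0.994, and stroma, 0.402). The labels do not say if the probe lies in the deleted part, so it does not check them. A second Rarb probe was above background on 0 of 12 arrays. The mean log2 ratio over 13 measured luminal epithelial markers (keratins, claudins and others) was 2.87 to 3.40 in KO and 2.64 to 3.06 in WT epithelium. It was 2.07 to 2.83 in WT stroma and 0.48 to 1.33 in KO stroma. Over 13 fibroblast markers it was 2.91 to 3.35 in KO stroma, 0.20 to 1.72 in WT stroma, -2.94 to -0.12 in KO and -1.78 to 1.11 in WT epithelium. Thus the stromal arrays labelled WT held luminal markers near the epithelial level, and the WT compartments correlated across genes at 0.81 on average against 0.57 for the KO compartments. Bulk RNA cannot tell fewer cells of a type from less RNA per cell.

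**Figure D1:**
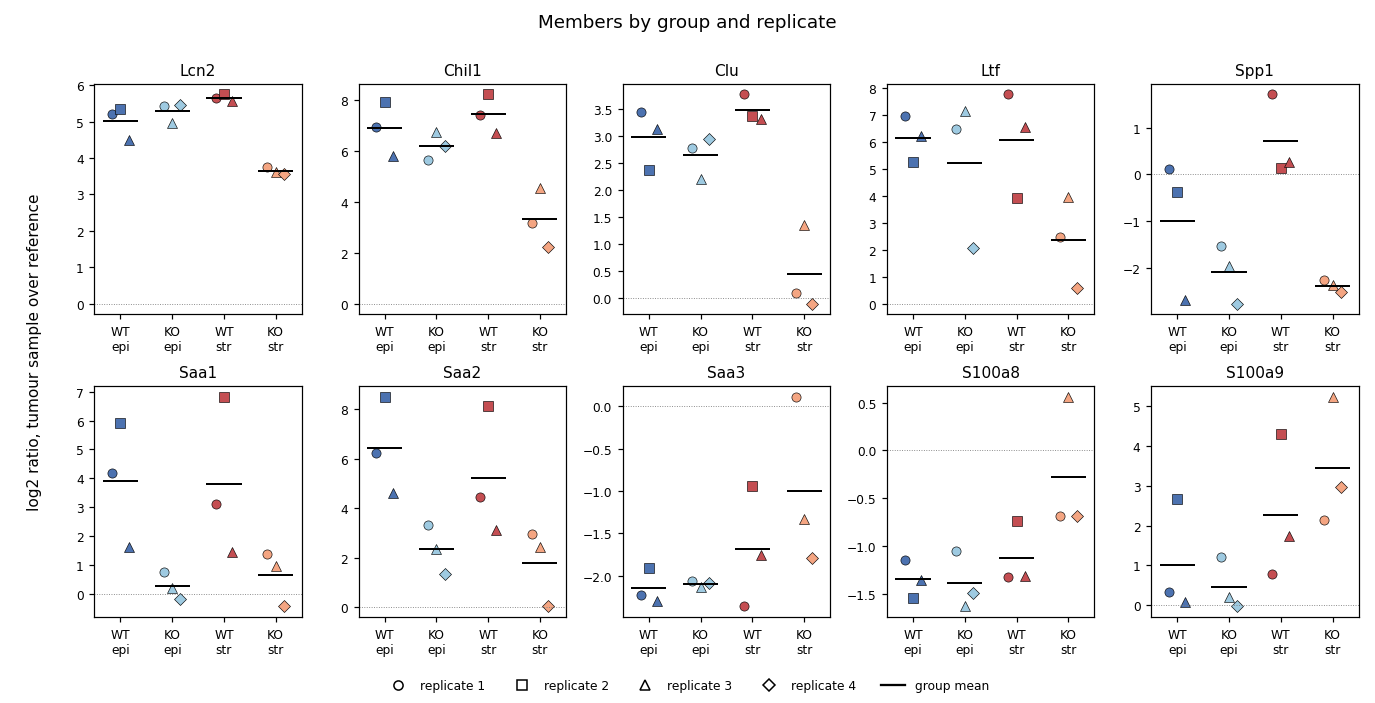
Log2 ratio of tumour sample over reference (vertical axis) for the 10 genes on each of the 12 arrays, by group; each point is 1 array and the bar is the mean of 3. Lcn2, Chil1, Clu and Spp1 lay lower on every KO stroma array than on every WT stroma array, and Saa1 and Saa2 lay lower in KO in both compartments.

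KO stroma was compared with WT stroma to ask which of these transcripts differed with the Rarb genotype in the tissue around the tumour cells. Lcn2, Chil1, Clu and Spp1 fell in KO stroma, by 4.03-fold to 17.7-fold for Lcn2, Chil1 and Clu, and no member was called higher. That is 4 of 10 members called lower (limma, Benjamini-Hochberg adjusted p under 0.05 over all genes), against 2.84% of all genes called lower and 3.48% called higher. The groups did not overlap, with KO lower, for 6 members (the same 4 with Saa1 and Saa2), against 13.1% of all genes. The median difference over the members was -3.06, against -0.01 over all genes tested. These counts are not independent of the choice of members: some were taken for high values on the WT stroma arrays that serve as controls here, which leans the difference towards lower KO values.

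Lcn2 encodes lipocalin-2, which binds bacterial siderophores and so withholds iron from bacteria. Its log2 ratio was 3.76, 3.62 and 3.55 in KO stroma (replicates 1, 3 and 4) and 5.65, 5.75 and 5.56 in WT stroma (replicates 1, 2 and 3). The arrays of each group lay close together and the groups were far apart. The difference was -2.01 (SE 0.23), a 4.03-fold fall (limma adjusted p = 0.004). Epithelium gave 5.42, 4.96 and 5.47 in KO and 5.22, 5.35 and 4.50 in WT, so that KO stroma stood alone as the low group.

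Chil1 encodes a chitinase-like glycoprotein that binds chitin without cleaving it. Its log2 ratio was 3.17, 4.54 and 2.24 in KO stroma and 7.42, 8.24 and 6.73 in WT stroma. Even the highest KO stroma array was below the lowest WT stroma array, and the difference of -4.15 (SE 0.67) was a 17.7-fold fall (limma adjusted p = 0.00916). Epithelium gave 5.64, 6.77 and 6.20 in KO and 6.94, 7.95 and 5.80 in WT, with overlap.

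Clu encodes clusterin, an extracellular chaperone and apolipoprotein. KO stroma gave 0.09, 1.36 and -0.10, and WT stroma 3.77, 3.37 and 3.32. The gap between the groups was wider than the range within either, and the difference was -3.04 (SE 0.40), an 8.24-fold fall (limma adjusted p = 0.00583). Epithelium gave 2.78, 2.21 and 2.95 in KO and 3.45, 2.37 and 3.12 in WT, again overlapping.

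Spp1 encodes osteopontin, a secreted phosphoprotein that binds integrins and CD44. KO stroma gave -2.26, -2.35 and -2.51, and WT stroma 1.71, 0.13 and 0.27. The probe was well above background on 1 of 3 KO stroma arrays and on 3 of 3 WT stroma arrays, so the low values lie near background. The difference was -3.07 (SE 0.67), and as its size rests on values near background no fold is given. It passed the test (limma adjusted p = 0.0256). This call was lost without any single KO stroma array (adjusted p = 0.0705 without replicate 1, 0.0627 without replicate 3 and 0.0618 without replicate 4) and without WT stroma replicate 1 (0.1). With Agilent's processed signals the difference was -4.57.

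Ltf encodes lactoferrin, an iron-binding protein of milk and of neutrophil granules. KO stroma gave 2.48, 3.96 and 0.60, and WT stroma 7.76, 3.92 and 6.56. WT replicate 2 lay just below KO replicate 3, so the groups overlapped, and the difference of -3.73 (SE 1.39) did not pass (limma adjusted p = 0.144). In epithelium KO gave 6.49, 7.15 and 2.05 and WT 6.96, 5.24 and 6.22, where KO replicate 4 alone was low.

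Markers of other cells moved with these falls. Of all genes tested, 2.84% were called lower in KO stroma and 3.48% higher. Of the 13 luminal epithelial markers measured, 7 fell in KO stroma and 0 rose, with a median difference of -1.71. Of 9 milk-secreting alveolar markers 2 fell and 1 rose, with a median of -5.34. The caseins among them had lower means in KO stroma, but none was called. Over the 9 alveolar markers the mean log2 ratio was 0.78 to 1.43 in KO stroma, 2.20 to 6.45 in WT stroma, 1.41 to 4.06 in KO and 2.43 to 6.29 in WT epithelium. Of 13 fibroblast markers 4 rose and of 12 macrophage markers 3 rose, with none falling. The macrophage mean was 2.65 to 3.23 in KO stroma and 1.06 to 1.95 in WT stroma. The part of these cell types in the lower Lcn2, Chil1, Clu and Spp1 of KO stroma was not tested. The calls of the marker lists were fewer without WT stroma replicate 1, where 2 luminal, 0 alveolar, 0 fibroblast and 0 macrophage markers passed.

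**Figure D2:**
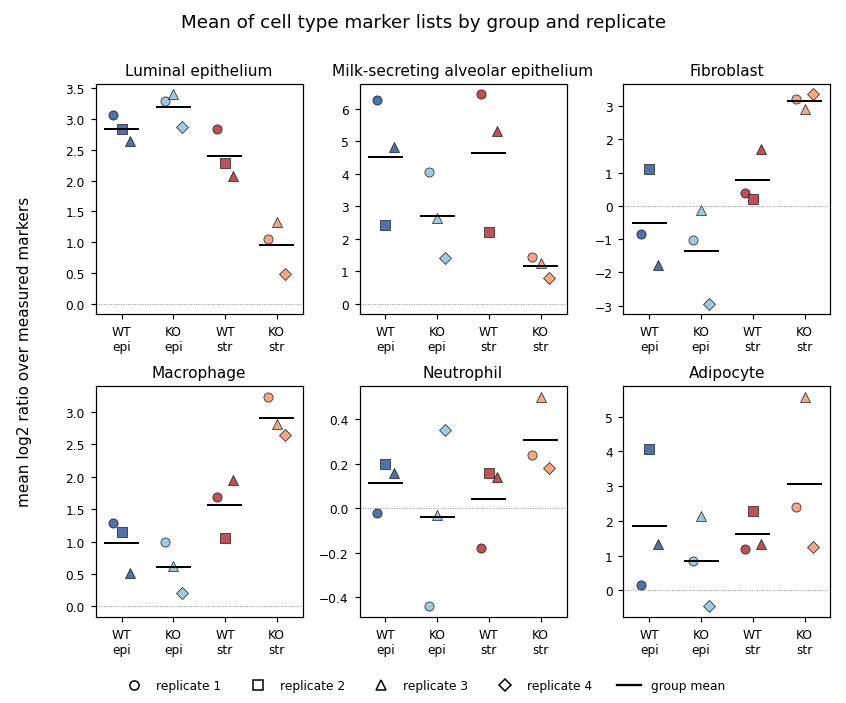
Mean log2 ratio over the measured markers of each cell type (vertical axis) on each array, by group; points are arrays. Luminal epithelial markers lay between 0.48 and 1.33 in KO stroma and between 2.07 and 2.83 in WT stroma, while fibroblast markers lay between 2.91 and 3.35 and between 0.20 and 1.72.

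KO epithelium was compared with WT epithelium to ask the same of the tumour cells. No member passed (0 of 10, limma), in a comparison that called 0.00749% of all genes. At an unadjusted p under 0.05 there were 2 members, Saa1 and Saa2, against 8.07% of all genes. The median difference over the members was -0.63, against 0.03 over all genes. Lcn2 differed by 0.26 (SE 0.23, limma adjusted p = 0.804), Clu by -0.33 (SE 0.40, 0.862) and Chil1 by -0.69 (SE 0.67, 0.818). The sign for Lcn2 turned with median centring (-0.043), with Cy3 alone (-0.20) and without WT replicate 3 (-0.0048). Spp1 gave -1.52, -1.95 and -2.76 in KO and 0.11, -0.38 and -2.68 in WT, where WT replicate 3 was as low as the KO arrays, and its difference was -1.09 (SE 0.67, adjusted p = 0.691).

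**Figure D3:**
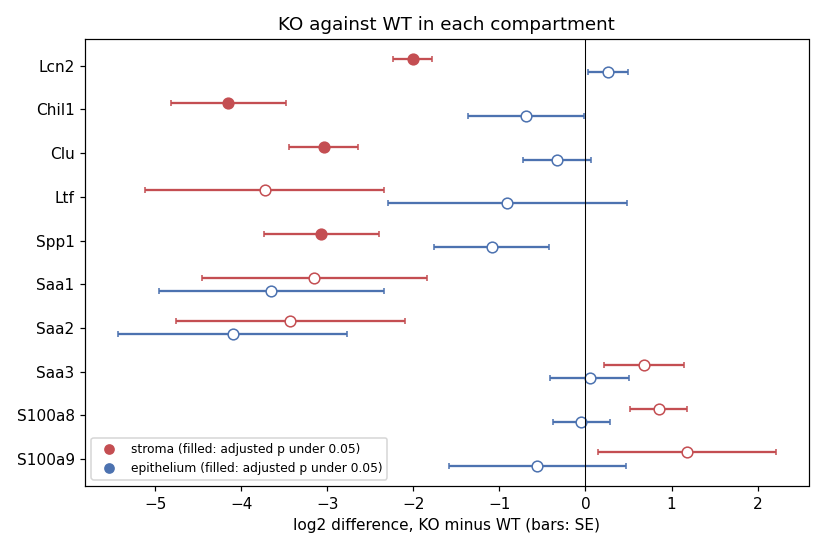
Difference of KO minus WT in log2 ratio (horizontal axis) for each of the 10 genes in stroma and in epithelium, with bars of 1 standard error; points that pass the limma test are marked. In stroma 4 genes pass, all lower in KO, and in epithelium none does.

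Saa1, Saa2 and Saa3 encode serum amyloid A apolipoproteins, which circulate on high-density lipoprotein in an acute-phase response. Saa1 and Saa2 are neighbours that arose as near copies, and Saa3 is a more distant relative known from macrophages and fat cells. Their start regions show how close the first pair is. The 250 bases upstream of each start in RefSeq (build GRCm38.p6) lie at chr7:46742981-46743230 on the minus strand, chr7:46751583-46751832 on the plus strand and chr7:46715677-46715926 on the minus strand. They are shown because the Saa1 and Saa2 values put the 6 tumours in 1 order and those of Saa3 did not. Capitals mark TTNNGCAA, a loose form of the C/EBP site searched on both strands, with no other motif overlapping it.
Saa1: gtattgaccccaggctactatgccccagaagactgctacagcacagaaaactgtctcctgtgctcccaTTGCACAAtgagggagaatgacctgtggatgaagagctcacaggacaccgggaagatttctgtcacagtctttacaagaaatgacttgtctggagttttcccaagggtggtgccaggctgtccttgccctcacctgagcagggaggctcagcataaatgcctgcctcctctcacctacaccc
Saa2: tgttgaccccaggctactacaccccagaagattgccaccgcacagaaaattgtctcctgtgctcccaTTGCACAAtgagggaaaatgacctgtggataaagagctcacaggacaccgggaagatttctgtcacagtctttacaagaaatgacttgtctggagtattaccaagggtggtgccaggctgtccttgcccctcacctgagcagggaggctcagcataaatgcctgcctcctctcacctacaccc
Saa3: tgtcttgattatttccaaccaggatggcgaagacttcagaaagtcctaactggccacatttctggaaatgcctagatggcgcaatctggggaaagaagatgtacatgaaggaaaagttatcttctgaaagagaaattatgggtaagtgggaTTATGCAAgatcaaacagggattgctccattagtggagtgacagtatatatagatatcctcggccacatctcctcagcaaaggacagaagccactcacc
Aligned over their full length, Saa1 and Saa2 were identical at 238 of 251 positions (94.8%), against 52.5% for Saa1 and Saa3. Probe sequences were not used here, so signal shared between the Saa1 and Saa2 probes cannot be told from signal of each, and the pair is reported as uncertain.

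Saa1 gave 0.76, 0.19 and -0.19 in KO and 4.17, 5.93 and 1.61 in WT epithelium. In stroma it gave 1.39, 0.97 and -0.44 in KO and 3.11, 6.82 and 1.43 in WT. The groups did not overlap in either compartment, although in stroma WT replicate 3 and KO replicate 1 nearly met. The KO minus WT difference was -3.65 (SE 1.31) in epithelium and -3.15 (SE 1.31) in stroma, and neither passed (limma adjusted p = 0.614 and 0.192). Without WT stroma replicate 2, the stromal difference was -1.63.

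Saa2 had the same order of tumours. In epithelium it gave 3.34, 2.34 and 1.35 in KO and 6.21, 8.49 and 4.60 in WT. In stroma it gave 2.96, 2.42 and 0.04 in KO and 4.44, 8.13 and 3.14 in WT. WT tumour 2 was the highest and KO tumour 4 the lowest in both compartments for both genes. The difference was -4.10 (SE 1.33) in epithelium, 17.1-fold, and -3.43 (SE 1.33) in stroma, 10.8-fold, and neither passed (limma adjusted p = 0.614 and 0.163). Without WT stroma replicate 2, the stromal difference was -1.98. The lower, non-overlapping values of both genes in KO epithelium stand against 4.45% of all genes that were lower without overlap there.

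Saa3 was near background throughout. Its probe was well above background on 0 of 3 KO and 1 of 3 WT epithelial arrays, and on 2 of 3 KO and 1 of 3 WT stromal arrays. It gave 0.11, -1.33 and -1.79 in KO stroma and -2.36, -0.94 and -1.75 in WT stroma, with overlap (difference 0.68, SE 0.46, limma adjusted p = 0.44). In epithelium the difference of 0.05 (SE 0.46, adjusted p = 0.988) turned negative with 4 other ways of scaling the arrays or taking values.

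S100a8 and S100a9, the calprotectin subunits, had higher means in KO than in WT stroma, without passing the test. S100a9 gave 2.15, 5.23 and 2.98 in KO stroma and 0.79, 4.29 and 1.73 in WT stroma. S100a8 gave -0.69, 0.56 and -0.69 in KO stroma and -1.32, -0.74 and -1.31 in WT stroma. The S100a9 groups overlapped, while the S100a8 groups did not, the only member with KO higher throughout, against 13.1% of all genes. The differences were 1.18 (SE 1.03, limma adjusted p = 0.565) for S100a9 and 0.85 (SE 0.33, 0.166) for S100a8. With single stroma arrays left out they ranged from 0.30 (without KO replicate 3) to 2.19 (without WT replicate 2) for S100a9 and from 0.43 (without KO replicate 3) to 1.06 for S100a8. In epithelium S100a9 gave 1.22, 0.20 and -0.03 in KO and 0.33, 2.66 and 0.07 in WT, and S100a8 gave -1.05, -1.63 and -1.49 in KO and -1.15, -1.54 and -1.35 in WT. The S100a8 probe was well above background on 1 of 3 arrays in each group but KO stroma, which had 2, and the S100a9 probe on 1 of 3 in each epithelium and 3 of 3 in each stroma. In stroma KO replicate 3 and WT replicate 2 were the highest of their groups for both genes. They were also the highest of their groups in the mean over 8 adipocyte markers (5.57 and 2.30, against 1.20 to 2.39 on the other stroma arrays). The same arrays were the highest of their groups in the mean over the measured neutrophil markers (0.50 and 0.16), with WT replicate 3 close at 0.14. The part of either cell type in the S100a9 values was not tested. Of the neutrophil markers 0 passed between the stromata, and their mean was 0.18 to 0.50 in KO stroma and -0.18 to 0.16 in WT stroma, over 9 of 16 markers. Ly6g, Mmp8, Mmp9, Ngp, Retnlg, Stfa1 and Il1r2, which include defining neutrophil genes, were not measured.

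KO stroma was then compared with KO epithelium of the same tumours. The contrast that chose some members did not use these KO arrays. The spread for this comparison came from all 12 arrays, WT included. Members were also chosen with earlier results of these data known, so the comparison is not independent of that choice. Chil1, Lcn2, Clu and Ltf fell in stroma and S100a9 rose. That is 4 of 10 lower against 9.86% of all genes, and 1 of 10 higher against 10.2%. The median over the members was -0.42, against -0.03 over all genes tested. Stroma minus epithelium was -2.48, -2.23 and -3.96 in tumours 1, 3 and 4 for Chil1. It was -1.65, -1.34 and -1.92 for Lcn2, and -2.70, -0.85 and -3.05 for Clu. All 3 tumours ran the same way for each. The mean differences were -2.89 (SE 0.34, 7.40-fold, limma adjusted p = 0.00383) for Chil1, -1.64 (SE 0.21, 3.11-fold, 0.00432) for Lcn2 and -2.20 (SE 0.42, 4.59-fold, 0.0154) for Clu.

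For Ltf stroma minus epithelium was -4.01, -3.19 and -1.45, a mean of -2.88 (SE 0.56, 7.37-fold, limma adjusted p = 0.0162). For S100a9 it was 0.93, 5.03 and 3.01, a mean of 2.99 (SE 0.69, adjusted p = 0.0278), with tumour 3 the highest, and a mean of 4.93 with Agilent's processed signals. As the S100a9 probe was well above background on 1 of 3 KO epithelium arrays, the size of this difference rests on values near background and no fold is given. With no tumour block Ltf (adjusted p = 0.185) and S100a9 (0.0699) lost their calls and S100a8 gained one (0.0408). The S100a9 call was lost without tumour 3 (1.97, adjusted p = 0.0839) or tumour 4 (0.102) and with the 6 KO arrays alone (0.0674). That of Ltf was lost without tumour 1 (0.0786) or 3 (0.0771), and that of Clu without tumour 1 (0.0804) or 4 (0.0744). Lcn2 and Chil1 passed in every alternative run for this comparison and for KO against WT stroma.

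The rest of the members did not differ past the threshold between the KO compartments. S100a8 differed by 1.12 (SE 0.37, limma adjusted p = 0.0775) and was higher in stroma in 3 of 3 tumours. Saa3 also was higher in 3 of 3 tumours, by 2.16, 0.80 and 0.31 in tumours 1, 3 and 4, without passing (adjusted p = 0.0895). Its KO epithelium signal never rose well above background, so the fold is a bound, at least 1.80-fold for the mean of the 3 tumours. That bound need not hold for each tumour, as tumour 1 was the largest. With single tumours left out the difference was as low as 0.55. Saa1 differed by 0.39 (SE 0.38, 0.518), Saa2 by -0.53 (SE 0.35, 0.33) and Spp1 by -0.30 (SE 0.44, 0.671). The Spp1 probe was well above background on 1 of 3 KO stroma and 2 of 3 KO epithelium arrays. Its small difference thus rests on values near background and cannot show whether the compartments differ. Between the same compartments 9.86% of all genes were called lower in stroma and 10.2% higher. Among cell type markers, 12 of 13 luminal markers fell in stroma, 13 of 13 fibroblast and 11 of 12 macrophage markers rose, and 1 of 9 neutrophil markers rose. The part of these cell types in the differences of Lcn2, Chil1, Clu, Ltf and S100a9 was not tested.

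**Figure D4:**
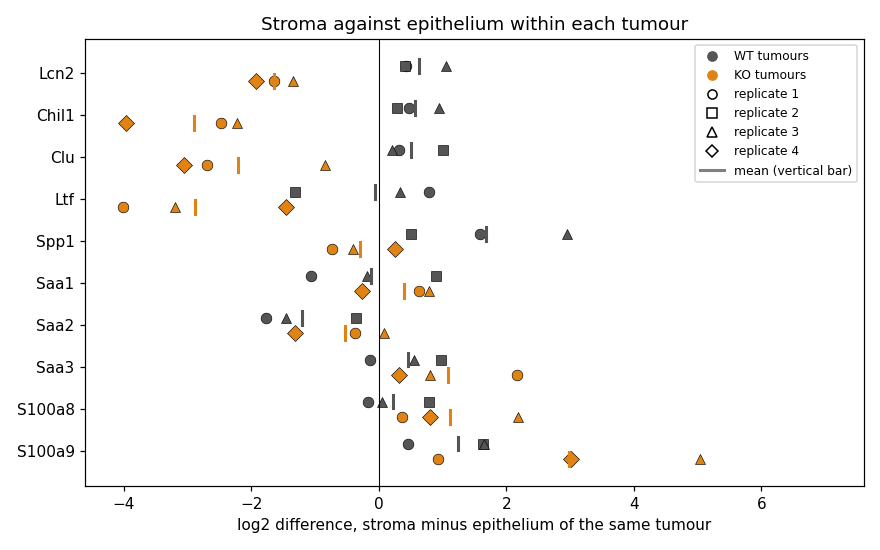
Stroma minus epithelium of the same tumour in log2 ratio (horizontal axis) for the 10 genes; each point is 1 tumour, with KO and WT apart, and the bar is the mean. For Lcn2, Chil1 and Clu the 3 KO tumours lie below 0 and the 3 WT tumours above it, although with Cy3 alone the WT mean of Lcn2 was -0.023.

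WT stroma against WT epithelium is the contrast that chose some members, so it is given as values alone. Stroma was above epithelium by 0.42, 0.41 and 1.06 in WT tumours 1, 2 and 3 for Lcn2, by 0.47, 0.29 and 0.94 for Chil1, by 0.32, 1.0 and 0.21 for Clu, by 1.59, 0.51 and 2.95 for Spp1 and by 0.46, 1.63 and 1.65 for S100a9. These 5 of 10 members were higher in stroma in all 3 WT tumours, which was so for 16.3% of all genes. For Lcn2, Chil1 and Clu the WT means of 0.63, 0.57 and 0.51 were smaller in size than the KO means of -1.64, -2.89 and -2.20. With Cy3 alone the WT mean of Lcn2 was -0.023. Saa2 ran below 0 in all 3 WT tumours (-1.77, -0.36 and -1.46), and Saa1, Ltf, Saa3 and S100a8 had tumours on both sides of 0. The member just inside a positive sign in all 3 was Clu, with a lowest tumour at 0.21. The member just outside was Saa3, with a lowest tumour at -0.14 and the others at 0.97 and 0.55.

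**Figure D5:**
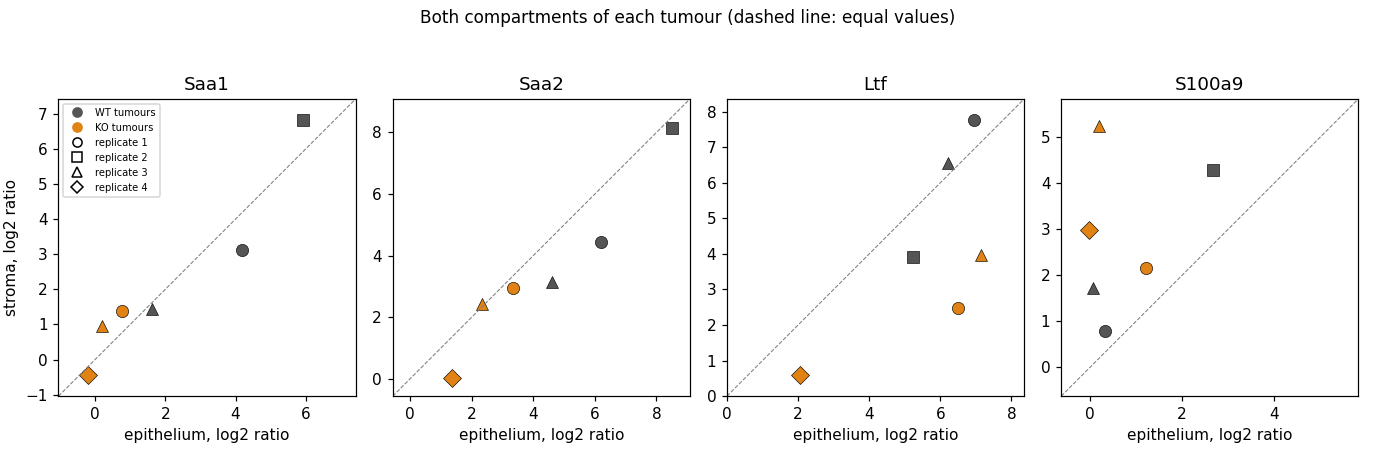
Log2 ratio in stroma (vertical axis) against epithelium (horizontal axis) of each of the 6 tumours for Saa1, Saa2, Ltf and S100a9; the dashed line marks equal values. For Saa1 and Saa2, WT tumour 2 is highest and KO tumour 4 lowest, and Saa2 of the 3 WT tumours lies below the line. Ltf of the 3 KO tumours lies below the line, and S100a9 of all 6 tumours lies above it.

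Of the genes that fell in KO stroma, promoters are shown for Lcn2 and Chil1, whose calls also held between the KO compartments under each alternative run. The 250 bases upstream of the RefSeq start (GRCm38.p6) lie at chr2:32387740-32387989 on the minus strand for Lcn2 and chr1:134181906-134182155 on the plus strand for Chil1. Capitals mark TTNNGCAA in Lcn2 and a match to the NF-kB consensus in Chil1.
Lcn2: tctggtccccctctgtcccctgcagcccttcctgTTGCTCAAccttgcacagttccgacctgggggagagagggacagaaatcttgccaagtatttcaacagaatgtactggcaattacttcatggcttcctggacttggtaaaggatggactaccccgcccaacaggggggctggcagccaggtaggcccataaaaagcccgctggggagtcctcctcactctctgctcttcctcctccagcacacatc
Chil1: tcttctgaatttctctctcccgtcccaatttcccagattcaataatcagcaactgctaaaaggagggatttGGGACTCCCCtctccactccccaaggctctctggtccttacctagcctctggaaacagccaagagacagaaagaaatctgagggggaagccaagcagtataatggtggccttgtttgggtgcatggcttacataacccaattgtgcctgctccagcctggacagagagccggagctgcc
The 9 members with a promoter had 10 windows. TTNNGCAA was present on either strand in 7 of these, against 9.56% of 32851 windows of this length. They were the windows of Lcn2, Ltf, S100a9, Saa1, Saa2 and Saa3 and 1 window of Spp1. Those of Saa1 and Saa2 are near copies (94.8% identical) with the same match, so these are not separate matches. The NF-kB consensus was in the window of Chil1 alone among the members, against 3.90%, and TTCNNNGAA, the pattern bound by STAT factors, was in 0 members, against 7.02%. The patterns were chosen with the sequences in view. The matches are letters in these windows and were found both in genes that fell and in genes that did not, such as Saa3 and S100a9.

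The rest of the system was read from lists of related genes. For the counts below, 2.84% of all genes were called lower and 3.48% higher in KO stroma against WT stroma. In KO stroma against KO epithelium 9.86% were called lower and 10.2% higher. Of 15 measured other acute-phase proteins (of 26 listed), 1 fell in KO stroma and 0 rose. This was Cp, the copper-carrying plasma protein ceruloplasmin, at -1.80 in KO and 1.63 in WT on average (difference -3.43, SE 0.63, limma adjusted p = 0.016), and the call was lost without KO stroma replicate 1 (0.0533) or WT stroma replicate 1 (0.0666). The list's median was 0.07. Between the KO compartments 2 of these 15 were called higher in stroma and 2 lower, near the shares of all genes. Complement factor B (Cfb) rose by 3.16 (SE 0.33, adjusted p = 0.00279), while the fibrinogen chains Fgb and Fgg fell by 2.66 and 3.61 on the log2 scale (0.0163 and 0.0483). Both fibrinogen calls were lost with Agilent's processed signals (0.0871 for Fgb and 0.149 for Fgg) and without tumour 3 (0.0808 and 0.131) or tumour 4 (0.0803 and 0.158). That of Fgg was lost also without tumour 1 (0.159), with median centring (0.0701), with no filter on dim probes (0.0701) and with no replicate block (0.0972). The other gene called higher, the protease inhibitor Serpina3n, was well above background in KO stroma alone, on 3 of 3 arrays, and so entered the test only through the group where it was high. Its value there was at least 2.05-fold that of KO epithelium, and its call is not read as support.

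Of 18 measured other antimicrobial and mucosal defence genes (of 25), 0 were called between genotypes in stroma, where the smallest p belonged to Lyz1 (1.03, SE 0.44, limma adjusted p = 0.199) and Pigr (0.66, SE 0.30, 0.238). Between the KO compartments 2 of 18 rose in stroma and 2 fell, near the 10.2% and 9.86% of all genes. The lysozyme genes Lyz1 (2.78, SE 0.35, 0.00448) and Lyz2 (0.69, SE 0.18, 0.0383) rose. The mucin Muc4 (-2.64, SE 0.37, 0.00603) and the secreted protease-inhibitor-like gene Wfdc2 (-3.76, SE 0.64, 0.0109) fell. The Lyz2 call was lost without tumour 1 (0.144), 3 (0.0925) or 4 (0.0829), with median centring (0.113), with no replicate block (0.19) and with the 6 KO arrays alone (0.0997), and that of Wfdc2 without tumour 3 (0.0503) or 4 (0.0619). In epithelium Wfdc2 differed between KO and WT by 2.44 (SE 0.83, 0.614) and the antiprotease gene Slpi by 2.63 (SE 0.74, 0.609), and neither passed. Fgb also missed there (2.89, SE 0.75, 0.587).

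Of 13 other S100 genes (of 15), 1 rose in KO stroma against WT stroma, S100a13 (1.25, SE 0.23, limma adjusted p = 0.0147). The call was lost with median centring (0.80, adjusted p = 0.154) and with Cy3 alone (0.97, 0.0978). Between the KO compartments S100a4, a marker of fibroblasts and motile cells, rose by 4.30 in stroma (SE 0.53, 0.00413), S100a13 by 1.37 (SE 0.22, 0.00882), and S100a1 fell by 1.03 on the log2 scale (SE 0.25, 0.0326). The S100a13 call was lost with Cy3 alone (0.0505) and without tumour 4 (0.0521). That of S100a1 was lost with the processed signals (0.0557), with the 6 KO arrays alone (0.0592) and without tumour 1 (0.0691), 3 (0.0871) or 4 (0.131).

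Of 25 measured inducers of acute-phase genes (of 32 cytokines, receptors and transcription factors), 1 rose in KO stroma, the interleukin-1 receptor gene Il1r1 (1.13, SE 0.23, limma adjusted p = 0.02). The call was lost under 6 alternatives, among them without KO stroma replicate 1 (0.0685), KO stroma replicate 3 (0.0577) and WT stroma replicate 1 (0.0789). Between the KO compartments 6 rose in stroma and 0 fell. They were led by the receptor chains Il6ra (2.47, SE 0.43, 0.0118), Il6st (2.44, SE 0.40, 0.00993), Il1r1 (1.65, SE 0.17, 0.00277) and Lifr (1.24, SE 0.27, 0.0227). The Il6ra and Il6st calls were lost without tumour 3 (0.0543 and 0.054) or tumour 4 (0.0545 and 0.0565). That of Lifr was lost without tumour 1 (0.0805) or 3 (0.0959), with median centring (0.0524), with the mean over probes (0.0514) and with no replicate block (0.149).

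Of 15 measured receptors and partners of the member proteins (of 21), 0 were called between genotypes in stroma. The osteopontin and hyaluronan receptor Cd44 differed by 1.17 (SE 0.39, limma adjusted p = 0.109) and Trem2 by 2.0 (SE 0.72, 0.128). Between the KO compartments 4 rose in stroma and 1 fell. Trem2, a macrophage receptor, rose by 2.85 (SE 0.44, 0.00841), the osteopontin-binding integrin chain Itgb3 by 1.97 (SE 0.47, 0.0303) and the endocytic receptor Lrp1 by 1.43 (SE 0.37, 0.0474). The Itgb3 call was lost with median centring (0.0777) and without tumour 3 (0.135) or 4 (0.118). That of Lrp1 was lost with the processed signals (0.0659), median centring (0.0844), no filter on dim probes (0.0636), no replicate block (0.133), the 6 KO arrays alone (0.0792) and without tumour 1 (0.146) or 3 (0.154). Il13ra2, which binds the Chil1 protein, was at least 3.43-fold higher in stroma (0.00763). No gene of these 5 lists passed between KO and WT epithelium, where 0.00749% of all genes were called.

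The reference channel was read beside the ratios. It was well above background on all 12 arrays for 6 members, on 8 for Chil1, on 2 each for Saa2 and Ltf and on 0 for S100a9, so for those 4 the size of the ratio to the reference is less certain than its differences between arrays. The 2 channels were also read apart after loess and a further scaling between arrays (Aquantile). The alternative called Cy3 alone is another quantity, scaled between arrays without loess. In the Cy3 channel read this way, with loess, Lcn2 and Chil1 differed between KO and WT stroma by -2.36 and -4.75. Their reference signal differed by -0.35 and -0.60.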

How the data were processed

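Per the labels, tumour RNA carried Cy3 and a universal mouse reference RNA Cy5 on 12 arrays, with no dye swap. Scans were quantified with Agilent Feature Extraction 10.7.3.1, per the file headers. The deposited scanner files hold spot and background intensity, quality flags and the log10 of Cy5 over Cy3. The deposited value table holds log2 values. Compared with the scanner files, the 6 epithelial columns ran as reference over sample with medians of -0.05 to 0.02 (how they were scaled was not stated). Its 6 stromal columns, with medians of -0.01 to 0.05, did not correlate with their arrays, so their direction stays unknown and they were not used.

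Median intensities were corrected with normexp (offset 50) and loess with controls at weight 0, and turned to sample over reference. Non-uniform spots were set missing. Spots of a probe were averaged, which gave 55681 probes, of which 27235 were named through a RefSeq table (GRCm38.p6). As the headers name another build, no gene coordinates are given. A probe was kept if 3 or more of the 12 arrays had its Cy3 well above background, and the brightest kept probe stood for its gene. KO and WT were compared with limma 3.58.1 in R 4.3.3 in a fit of 4 group means (8 residual degrees of freedom). The KO compartments were compared in a fit with a fixed term for each tumour, which left 4 residual degrees of freedom. Pairing comes from genotype and number in the titles. Over genes, deviations from group means correlated at 0.09 to 0.46 between compartments of a tumour. With the other stroma arrays of the same genotype they correlated at 0.02 at most. Deviations within a group of 3 arrays sum to 0, so a positive value for 1 array lowers the others, and these values do not settle the pairing. The calls use an adjusted p under 0.05 over 13350 genes. The fit was tested on simulated data. A fold against a group with no array above background is a bound from the Cy3 channel (loess, then Aquantile) and, without dye swaps, can carry dye bias. The alternatives were the processed signals, median centring, Cy3 alone, 2 filters, the mean over probes, the replicate block, fewer arrays in the fit, the deposited table and each replicate left out.

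Members and gene lists were chosen with earlier results of these data known. The genes named are all members, Rarb, up to 4 called genes of each list with the largest change or, with none called, the 2 of smallest p, and the 2 genes most alike to each member. S100a5, Hpx, Bcl3, Jak2 and S100a2 and, in epithelium, Lrp1 and Itgb3 fall under this rule, did not pass and are not described.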

Additional observations from a re-analysis of the deposited data

Results flagged for a closer look

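Lcn2, Chil1 and Clu ran in opposite directions between compartments in the 2 genotypes: stroma was below epithelium in each of the 3 KO tumours and above it in each of the 3 WT tumours. With Cy3 alone the WT mean of Lcn2 was -0.023, so its opposite direction did not hold under that scaling. The difference between genotypes, KO minus WT, of stroma minus epithelium was -2.27 for Lcn2 (means -1.64 and 0.63), -3.46 for Chil1 (-2.89 and 0.57) and -2.71 for Clu (-2.20 and 0.51). The difference was not tested, since the WT part chose some of the members. The luminal epithelial markers gave mean log2 ratios of 0.48 to 1.33 in KO stroma and 2.07 to 2.83 in WT stroma, and their part in these differences was not tested.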

How the results depend on the processing

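The count of members called between KO and WT stroma was 4 in the main analysis and 3 to 4 with single arrays left out, and it was 4 with tumour as a random replicate block (estimated correlation 0.22). Over 14 alternatives each, the stromal differences ranged from -2.21 to -1.96 for Lcn2 (limma adjusted p = 0.00107 to 0.0329), -4.76 to -3.18 for Chil1 (0.00664 to 0.0409) and -3.50 to -2.76 for Clu (0.0039 to 0.0336). Between KO and WT epithelium the count of members called was 0 in each alternative run. Between the KO compartments that count was 5, 3 with any KO tumour left out (3 to 3), and 4 with no replicate block or with the 6 KO arrays alone. The count of members higher in stroma in every WT tumour was 5, and 3 with Cy3 alone or with probes above background on all 12 arrays, where fewer genes were kept. In epithelium the uncalled differences of KO minus WT changed sign for Saa3 (0.05 in the main analysis, -0.49 with the processed signals, -0.14 with median centring, -0.12 with Cy3 alone, -0.55 in the deposited table), Lcn2 (-0.043 with median centring, -0.20 with Cy3 alone) and Rarb (0.0086 with Cy3 alone), and the cause was not tested. With single epithelial arrays left out they ranged from -0.0048 to 0.42 for Lcn2, -0.22 to 0.075 for S100a8, -1.03 to 0.26 for S100a9, -0.028 to 0.17 for Saa3, -1.87 to 0.68 for Ltf and -0.60 to 0.64 for Rarb. Over all genes, 843 were called between stromata (464 higher, 379 lower), 201 with median centring (50 higher, 151 lower), 292 with the 6 stroma arrays alone and as few as 175 without WT stroma replicate 1. Between KO compartments 2676 were called (1360 higher, 1316 lower), 1529 with median centring, 4116 with Cy3 alone (1637 higher, 2479 lower) and 1096 to 1221 without a tumour. Median centring moved the median of all genes to -0.17 in epithelium from 0.03. Signals near background limit S100a8, Saa3, S100a9 in epithelium and Spp1 in KO stroma.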

Other observations

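The genes outside the members whose log2 ratios were most alike over the 12 arrays are given with Pearson's r as a description, since the arrays share tumours, groups and slides. For Lcn2 they were Rps3 (0.93) and Tarsl2 (0.91), for Chil1 Clic6 (0.93) and Adk (0.93), and for Clu Muc20 (0.94) and Snw1 (0.94). For Ltf they were Ank3 (0.91) and Cck (0.91), and for Spp1 Tspan8 (0.92) and Snrnp48 (0.92). Saa1 was nearest to Tg (0.93) and Ddx27 (0.86), Saa2 to Gdpd2 (0.89) and Pcsk1n (0.88), and Saa3 to Cyp2s1 (0.92) and Tesc (0.92). S100a8 was nearest to Colec11 (0.93) and Meox2 (0.92), and S100a9 to Gfra2 (0.93) and Gpr183 (0.92).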
